A study of Mus musculus with 9 samples.

Results

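Livers of mice given tetracycline (Tc) were compared with livers of control mice across the transcriptome. The comparison used the 3 Tc and 3 control libraries, 6 of the 9 libraries of the series, and the 12100 of 32285 genes whose mean over the 9 libraries was at least 10 normalized counts. The mice were 4-week-old Tet-OFF males, which carry a piggyBac CAG-CreERT2 transgene and, at the Rosa26 locus, loxP-stop-loxP-tTA and tetO-Venus-ires-mCherry alleles. They derive from V6.5 embryonic stem cells, a C57BL/6 × 129/sv hybrid. All groups, controls included, received tamoxifen, which lets Cre remove the stop cassette in front of tTA in every organ. Tc mice then drank Tc hydrochloride at 2 mg/mL in water with 10 mg/mL sucrose for 7 days. The remaining 3 libraries, from mice given doxycycline (Dox) the same way, entered the shared estimate of the spread and the mean that decided which genes were tested, and 123 of the tested genes had a mean under 10 over the control and Tc libraries alone. The question was which endogenous liver transcripts differ after the drug. In this model tTA drives Venus and mCherry without the drug and is shut off by it, so effects of the drug, of the silenced transgene and of any sucrose that only treated mice drank cannot be told apart. The time of day at which livers were taken is not given in the sources used here.

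Tetracyclines block the bacterial ribosome, and they also reach the related ribosome of mitochondria, which makes the core subunits of the respiratory chain from the mitochondrial genome. Hepatocytes, the main cell type of the liver, make cholesterol, bile acids, plasma proteins and drug-metabolizing enzymes. Many of those genes follow the circadian clock, a loop in which the activators Arntl and Clock switch on Per and Cry genes, whose proteins then shut the activators off. Cholesterol synthesis is set by SREBP2, a factor that moves to the nucleus when membrane sterols run low.

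Libraries 3 resembled blends for most genes that differed over 2-fold between libraries 1 and 2. Among genes that differed over 2-fold between libraries 1 and 2, the level in library 3 fell inside their interval for 501 of 586 genes (controls) and 962 of 1022 (Tc). In libraries 3 the 7 tested genes of the mitochondrial genome, given below, lay outside the interval of libraries 1 and 2. These were not limited to genes over 2-fold apart, and the origin of libraries 3 was not tested. If they are blends, p-values of fits that use them are too small, so libraries 1 and 2 are shown singly below, with tests that leave libraries 3 out. The study describes its samples as independent, and the labels do not name the animals. Depth ranged from 8250804 to 10912338 reads on genes in the controls and from 10216627 to 12183041 with Tc. Albumin (Alb) took the largest share in all 6 libraries, from 9.90% to 12.8% in controls and from 5.78% to 9.98% with Tc. Hepatocyte markers were abundant in every library, and Ddx3y, a Y-linked gene, read from 562 to 621 normalized counts in controls and from 546 to 743 with Tc.

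Few genes were called when the spread of all 9 libraries, Dox included, was counted. In limma on log2(normalized count + 1) with all 9 libraries, 20 genes (0.165% of those tested) differed by more than 2-fold with a p under 0.05 after Benjamini-Hochberg adjustment, 5 higher with Tc (0.0413%) and 15 lower (0.124%). In libraries 1 and 2 the groups did not overlap for any of these 20 genes. DESeq2 on the whole reads recovered from libraries 1 and 2 called 73 genes higher (0.603% of 12098 with an adjusted p) and 96 lower (0.794%), and 19 of the 20 limma calls were among them. By a plain rule with no test, that both Tc libraries 1 and 2 lie at least 2-fold beyond both control libraries 1 and 2, 51 genes were higher (0.421%) and 105 lower (0.868%). Without any limit on fold, libraries 1 and 2 of the groups did not overlap for 23.6% of genes in the higher and 22.0% in the lower direction. The median difference over all genes was 0.003 on the log2 scale.

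The counts depend on how the spread is estimated. Limma without libraries 3 called 0 genes in the 3-group fit, where 239 genes had an unadjusted p under 0.05, and 2 genes, Gm43305 and Eno1b, in the fit of control and Tc alone, where 1340 did. With all 9 libraries but 1, limma called 3, 2 and 1 genes without control library 1, 2 or 3. It called 1, 13 and 1 without Tc library 1, 2 or 3, and 46, 221 and 2 without Dox library 1, 2 or 3.

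**Figure D1:**
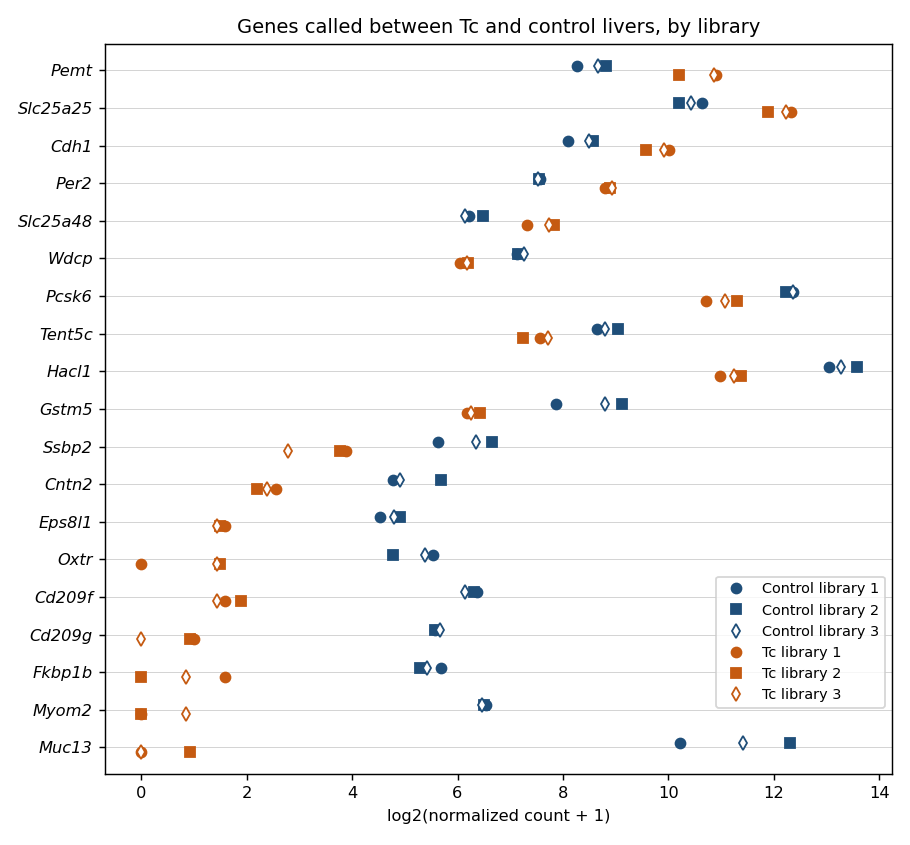
Of the 20 genes called by limma with all 9 libraries, 19 are plotted, with log2(normalized count + 1) on the x axis for control (blue) and Tc (orange) libraries 1 (circles), 2 (squares) and 3 (open diamonds). Tc and control libraries do not overlap for any of those plotted, and for Muc13 the Tc libraries lie at 0 to 0.9 normalized counts.

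The widest gap belonged to Muc13, a membrane mucin of epithelia (chr16:33794037-33819934, GRCm38). Control libraries 1, 2 and 3 held 1186, 5043 and 2713 normalized counts, and the Tc libraries held 0, 0.9 and 0. Its adjusted p was 2.74e-04 in limma with all 9 libraries and 2.89e-13 in DESeq2 on libraries 1 and 2. Muc13 was thus abundant in each control liver and all but unread with Tc. The control libraries themselves differed over 4-fold.

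Hacl1 (chr14:31598730-31641286), the peroxisomal lyase that shortens phytanic and other 2-hydroxy fatty acids, fell in every library. It read 8413, 12165 and 9933 normalized counts in controls and 2026, 2654 and 2427 with Tc, a log2 fold change of -2.09 (SE 0.17, limma adjusted p = 0.0059). The lowest control library, 8413, lay more than 3-fold above the highest Tc library. Of 26 settings of the fit, Muc13 was called in 24 and Hacl1 in 21.

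Among the other genes lowered, neighbours appeared together. Cd209f and Cd209g, C-type lectins of the DC-SIGN family that lie close to each other on chromosome 8, read 81.5 and 78.7 (Cd209f) and 46.6 and 46.9 (Cd209g) in control libraries 1 and 2. With Tc, Cd209f read 2.0 and 2.7 and Cd209g 1.0 and 0.9. These lectins are close paralogs, so the split of reads between them is uncertain. Fkbp1b, which binds ryanodine receptors, fell from 50.8 and 38.0 to 2.0 and 0, and its neighbour on chromosome 12, Wdcp, from 139 and 141 to 65.4 and 72.8. Wdcp was the call of the 20 that DESeq2 on libraries 1 and 2 did not make (adjusted p = 0.0982).

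The rest of the lowered limma calls ranged widely in level. Pcsk6, a proprotein convertase, had the highest level, with 5297 and 4775 normalized counts in control libraries 1 and 2 and 1671 and 2528 with Tc. Gstm5, a mu-class glutathione transferase, fell from 234 and 552 to 71.3 and 85.4. Tent5c, a poly(A) polymerase, went from 401 and 526 to 189 and 151. Low-level calls were Ssbp2 (at least 48.7 in each control library against at most 13.7 with Tc), Oxtr, the oxytocin receptor (45.5 and 26.5 against 0 and 1.8), Cntn2 (26.5 and 50.4 against 4.9 and 3.6) and Eps8l1 (22.2 and 29.2 against 2.0 and 1.8). Myom2, which was also called, encodes a protein of striated muscle and is described with the markers of other tissues.

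Of the 5 genes raised in limma, Pemt had the largest change. Pemt methylates phosphatidylethanolamine to phosphatidylcholine, a route that is mainly hepatic. Control libraries 1, 2 and 3 read 306, 452 and 404 normalized counts and Tc libraries 1924, 1182 and 1866 (log2 fold change 2.08, SE 0.27, limma adjusted p = 0.0332). Slc25a25, a mitochondrial ATP-magnesium/phosphate carrier, rose from 1588, 1171 and 1372 to 5099, 3784 and 4829 (log2 fold change 1.73, SE 0.21, limma adjusted p = 0.0316). Both genes were more than 2-fold higher in the lowest Tc library than in the highest control library. Cdh1, E-cadherin, which marks periportal hepatocytes, went from 273 and 377 in control libraries 1 and 2 to 1024 and 762. Slc25a48, another mitochondrial carrier, rose from 73.0 and 88.5 to 158 and 226. Per2, the remaining call, belongs to the clock genes below.

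Further genes stood well apart in libraries 1 and 2 but missed the limma threshold with all 9 libraries. Cxcl1, a chemokine that draws neutrophils, fell from 533 and 1055 normalized counts to 17.6 and 36.9 (DESeq2 on libraries 1 and 2, adjusted p = 1.01e-21). Rgs16, a brake on G-protein signalling that was chosen after its values were seen, fell from 1997 and 2899 to 274 and 337 (adjusted p = 1.90e-22 in the same test). Cyp17a1, the steroid 17-alpha-hydroxylase, fell from 2786 and 2116 to 151 and 501. For each of these genes the control libraries lay at least 4-fold above both Tc libraries. Gm43305 and Eno1b, a copy of the enolase gene Eno1, were listed at 0 in every Tc library against 184 to 281 and 155 to 222 normalized counts in the controls. Against a floor of 3 reads in a library, they were at least 62.8-fold and 52.9-fold lower. Reads of Eno1b can be confused with those of Eno1.

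Several of the most lowered genes had Tc or control libraries that disagreed. Slc34a2, a sodium-phosphate cotransporter, read 3187 and 2222 in control libraries 1 and 2 but 6.8 and 171 with Tc. Corin, a protease that processes natriuretic peptides, read 245 and 99.1 against 3.9 and 33.3. Cux2, a transcription factor of female liver, read 1029 and 269 against 19.5 and 132, and the trehalase Treh 539 and 50.4 against 13.7 and 18.0. For these 4 genes the groups did not overlap, but the DESeq2 test on libraries 1 and 2 did not call them (adjusted p from 0.107 to 0.419).

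Among raised genes of that kind, Nrep was even within each group. It read 148 and 185 normalized counts in control libraries 1 and 2 and 899 and 851 with Tc (DESeq2 adjusted p = 9.23e-19). Dio1, the deiodinase that activates thyroid hormone, rose from 287 and 465 to 1855 and 1638, and Alas1, which makes the first step of heme synthesis, from 4640 and 2864 to 13894 and 11600. Serpina6, the carrier of corticosteroids in plasma, rose from 1521 and 1347 to 4305 and 5496. The Tc libraries of these genes differed from each other by much less than from the controls. Tppp, a tubulin-binding protein, rose from 25.4 and 24.8 to 156 and 94.4. Car3, a carbonic anhydrase, read 1722 and 1796 against 19704 and 4327, and Mup9, a major urinary protein with many near-identical copies, 3.2 and 5.3 against 777 and 14.4. Car3 and Mup9 were uneven between the Tc livers and were not called (DESeq2 adjusted p = 0.103 and 0.0628). Ppp1r3g, a glycogen-targeting subunit, rose from 3.2 and 0.9 to 10.7 and 61.1, and Cyp2c55 from 2.1 and 1.8 to 85.0 and 5.4, both at low levels in 1 Tc library. Ppp1r3g and Cyp2c55 met the minimum mean of 50 for naming only through the Dox libraries.

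Cholesterol synthesis and uptake genes were higher together. All 26 members of the list were tested, and DESeq2 on libraries 1 and 2 called 9 higher and 1 lower, against 0.603% and 0.794% of all genes. The groups did not overlap in libraries 1 and 2 for 20 members (higher) and 1 (lower), against 23.6% and 22.0% of all genes. The median difference, Tc minus control over libraries 1 and 2, was 0.998 on the log2 scale, against 0.003 over all genes. Limma with all 9 libraries called none of them.

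The regulatory DNA of these genes is shown because the members moved together. RefSeq windows (GRCm38.p6) were found for 18 of the 26 members, and the 250 bases before the start were searched on both strands for the sterol element TCACNCCAC and for CCAAT, the site of NF-Y, which acts with SREBP2. CCAAT occurred in 17 of those 18 genes (94.4%), against 40.5% of 9525 tested genes with a window. The 17 include Insig2, which fell, and Srebf2, which overlapped, and the clock genes described below had CCAAT in 60.0%. The sterol element occurred in 1, Hmgcs1 (5.56%), against 1.31%. In the windows of Hmgcs1 (chr13:119690101-119690350, plus strand) and Msmo1 (chr8:64733579-64733828, minus strand) below, capitals mark the sterol element and CCAAT, which reads ATTGG where it lies on the other strand. No marked motifs overlap.
Hmgcs1: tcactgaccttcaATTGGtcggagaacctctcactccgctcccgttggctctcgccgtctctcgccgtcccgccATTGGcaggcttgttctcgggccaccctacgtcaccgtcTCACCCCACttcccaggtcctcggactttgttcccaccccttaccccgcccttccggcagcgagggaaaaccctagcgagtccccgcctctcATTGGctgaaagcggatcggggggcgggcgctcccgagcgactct
Msmo1: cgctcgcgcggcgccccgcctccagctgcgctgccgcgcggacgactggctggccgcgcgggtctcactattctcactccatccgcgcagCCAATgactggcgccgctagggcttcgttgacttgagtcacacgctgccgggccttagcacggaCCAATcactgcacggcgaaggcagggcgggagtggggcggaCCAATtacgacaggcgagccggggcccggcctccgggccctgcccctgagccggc

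Along the pathway, the early steps were higher in both Tc livers but unequally. Hmgcs1, which makes HMG-CoA, read 638 and 1327 normalized counts in control libraries 1 and 2 and 1594 and 3848 in Tc libraries 1 and 2 (DESeq2 adjusted p = 0.0855). Fdps, the farnesyl diphosphate synthase, rose from 220 and 369 to 642 and 1338. In each case Tc library 2 was the higher of the Tc libraries. The squalene steps behaved alike, with Fdft1 at 320 and 304 against 608 and 1124 and Sqle at 166 and 211 against 293 and 1040.

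Of the later sterol steps, Msmo1 had the largest difference, from 379 and 346 normalized counts to 832 and 1568 (DESeq2 adjusted p = 1.60e-04). Cyp51 rose from 602 and 608 to 990 and 2069, and Sc5d from 2365 and 1454 to 4109 and 3790. Acat2, which supplies acetoacetyl-CoA, rose from 184 and 221 to 409 and 422. Srebf2 itself, which encodes SREBP2, overlapped between the groups, at 661 and 690 against 596 and 890.

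The brakes on SREBP2 differed between themselves. Insig1, which holds SREBP2 back, read 938 and 1262 normalized counts against 1941 and 2197, with a fold change under 2 (DESeq2 on libraries 1 and 2, adjusted p = 0.0174). Insig2, the related brake, moved the other way, from 1691 and 2122 to 603 and 831 (adjusted p = 5.47e-05). Insig2 was the member that fell.

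**Figure D2:**
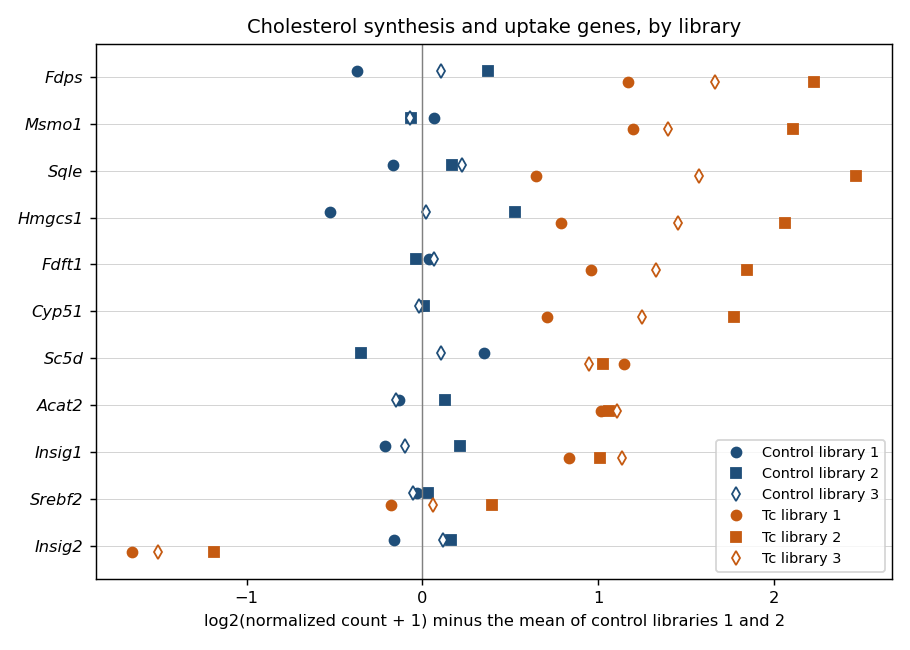
The cholesterol genes described by name, with log2(normalized count + 1) minus the mean of control libraries 1 and 2 on the x axis for control (blue) and Tc (orange) libraries 1 (circles), 2 (squares) and 3 (open diamonds). Most Tc points lie to the right of the controls, from Fdps at the top, while Insig2 at the bottom lies to the left.

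Of 28 lipogenesis genes tested, DESeq2 on libraries 1 and 2 called 3 higher and 0 lower, and the groups did not overlap for 13 in the higher and 2 in the lower direction (median difference 0.29 on the log2 scale). Over all genes, 0.603% and 0.794% were called and 23.6% and 22.0% did not overlap. Srebf1, the sister factor that drives fatty acid synthesis, rose from 1362 and 2304 normalized counts to 4130 and 3924. Scd1 and Fads2, which put double bonds into fatty acids, rose from 11965 and 15733 to 52575 and 30034 and from 1827 and 1224 to 5765 and 3310. The desaturases were thus raised while Fasn, the fatty acid synthase, overlapped between groups at 6348 and 10181 against 6477 and 5611. 

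In bile acid synthesis and transport, 2 of 30 genes were called higher and 0 lower, against 0.603% and 0.794% of all genes. Cyp7a1, the rate-limiting enzyme of bile acid synthesis, rose from 1850 and 787 normalized counts to 3308 and 3966 (DESeq2 on libraries 1 and 2, adjusted p = 0.0174). Abcg8, part of the pump that moves sterols into bile, rose from 690 and 458 to 1828 and 1020. Cyp2c70, which makes muricholic acids, read 11382 and 9293 against 5789 and 5247, with an adjusted p of 0.00286 but a fold change under 2. The uptake carrier Slco1b2 overlapped, at 13156 and 10185 against 12584 and 10824. Of 22 lipoprotein secretion genes and 18 lipid droplet genes, none was called.

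In fatty acid oxidation, DESeq2 on libraries 1 and 2 called 1 of 46 genes higher and 1, Hacl1, lower. Of all genes it called 0.603% higher and 0.794% lower. Acaa1b, a peroxisomal thiolase, rose from 2404 and 1588 normalized counts to 5598 and 3813. Ehhadh, a peroxisomal enzyme induced by PPAR-alpha, read 26960 and 8137 against 2556 and 7393, a spread that did not pass (adjusted p = 0.686).

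Clock genes differed in opposite directions. Of 24 genes tested, DESeq2 on libraries 1 and 2 called 4 higher (Wee1, Per2, Dbp and Per3) and 1 lower (Arntl). Over all genes, 0.603% were called higher and 0.794% lower. The groups did not overlap in libraries 1 and 2 for 12 (higher) and 3 (lower), against 23.6% and 22.0% of all genes. Arntl, the activator also known as Bmal1, read 37.0, 62.8 and 59.8 normalized counts in control libraries 1, 2 and 3 and 8.8, 12.6 and 5.9 with Tc (adjusted p = 0.0352). Its partner Clock read 636 and 606 against 364 and 453 and was not called. Both activators were lower in each Tc library than in any control library.

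Among the repressors, Per2 read 188, 186 and 184 normalized counts in controls and 446, 471 and 484 with Tc (log2 fold change 1.32, SE 0.16, limma adjusted p = 0.0316). Per3 rose from 381 and 272 to 642 and 683 in libraries 1 and 2. Per1 (648 and 573 against 710 and 773) and Cry1 (93.2 and 83.2 against 106 and 120) did not overlap either, but differed less and were not called. Cry2 and the nuclear receptor Nr1d1 overlapped between the groups. Per2 in particular varied little within either group.

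Among outputs of the clock, Wee1, a kinase that holds cells before mitosis, rose from 61.4 and 42.5 to 249 and 216 (DESeq2 adjusted p = 3.88e-07), and Dbp, a transcription factor, from 911 and 466 to 1674 and 1512. Noct, a dinucleotide phosphatase, read 435 and 188 against 785 and 763 (adjusted p = 0.0547), and Tef, a relative of Dbp, 1572 and 1031 against 2372 and 2283 (adjusted p = 0.0869). Dbp and Tef bind the D-box TTATGTAA. Within 250 bases before the start, RefSeq windows held it in 1 of 20 clock genes, Per3, against 0.630% of tested genes with a window. The Per3 window (chr4:151044666-151044915, minus strand, GRCm38.p6) is shown with 2 D-boxes and 3 CCAAT boxes in capitals, CCAAT reading ATTGG on the other strand.
Per3: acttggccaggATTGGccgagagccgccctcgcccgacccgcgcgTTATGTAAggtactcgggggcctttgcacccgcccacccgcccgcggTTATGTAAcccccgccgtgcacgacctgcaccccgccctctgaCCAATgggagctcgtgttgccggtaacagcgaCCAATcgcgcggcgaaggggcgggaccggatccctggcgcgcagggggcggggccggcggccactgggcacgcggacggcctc
The E-box CACGTG, the site of Arntl and Clock, occurred in 5 of the 20 (25.0%), against 9.93%. None of the 5 was called, and the cholesterol list had a similar share (22.2%).

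**Figure D3:**
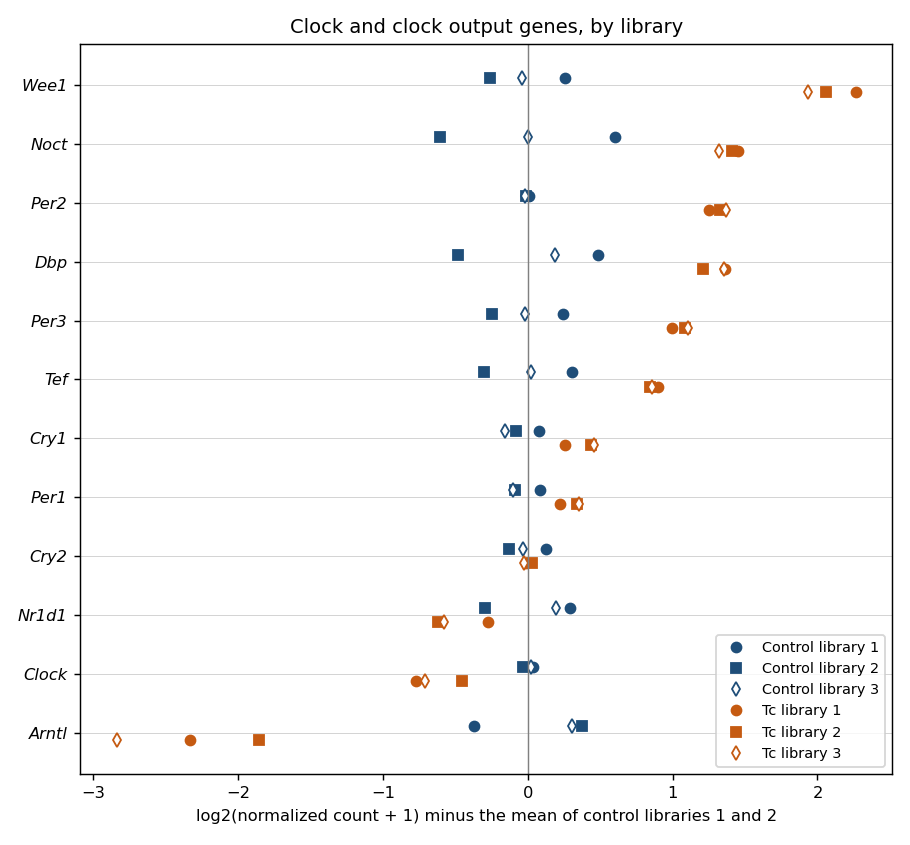
The clock and clock output genes described by name, with log2(normalized count + 1) minus the mean of control libraries 1 and 2 on the x axis for control (blue) and Tc (orange) libraries 1 (circles), 2 (squares) and 3 (open diamonds). Wee1 at the top and Arntl at the bottom lie farthest from the controls, and the Tc libraries of most raised genes lie close to each other.

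Of the 13 protein-coding genes of the mitochondrial genome, 7 passed the filter on low values. Below it lay mt-Nd3, mt-Nd4l, mt-Co2, mt-Co3, mt-Atp6 and mt-Atp8. The study counted uniquely mapped reads, and whether reads of these genes were lost in that step was not tested. Most of the 7 were higher with Tc in libraries 1 and 2, while in libraries 3 the order turned for several. The groups did not overlap in libraries 1 and 2 for 6 of the 7, all higher, against 23.6% of all genes. The median difference of the 7 was 0.93 on the log2 scale. DESeq2 on those libraries called mt-Nd2 and mt-Nd4 higher, both subunits of complex I, against 0.603% of all genes. mt-Nd2 read 11054, 7378 and 12323 normalized counts in control libraries 1, 2 and 3 and 19572, 21568 and 10521 with Tc. mt-Nd4 read 5872, 4523 and 7298 against 10831, 11351 and 5470. Tc library 3 was thus below control library 3 for both genes, and it lay below both other Tc libraries for 6 of the 7 genes. Control library 3 lay above both other control libraries for 6 of 7. With all 3 libraries mitochondrial genes took 0.972%, 0.791% and 1.13% of counted reads in controls and 1.69%, 1.56% and 1.01% with Tc. For all 7 of these genes libraries 3 thus lay outside the range of libraries 1 and 2, in both groups. The count above of genes with library 3 inside that range covered only genes over 2-fold apart, so other genes were not compared.

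Nuclear genes of mitochondria differed by small steps. Of 76 nuclear respiratory chain genes and 77 mitochondrial ribosome genes, DESeq2 on libraries 1 and 2 called none. The groups did not overlap in the higher direction for 36 of the 76 (47.4%) and 30 of the 77 (39.0%), against 23.6% of all genes, and in the lower direction for 1 and 8, against 22.0%. Median differences were 0.23 and 0.15 on the log2 scale. Atp5b, a subunit of ATP synthase, read 10766 and 9917 normalized counts against 13591 and 11289, and Mrpl12 710 and 506 against 795 and 688. Neither passed a test.

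Of 16 mitochondrial chaperones and proteases, 1 was called, in the lower direction, against 0.794% of all genes. Clpx, the unfoldase of the ClpXP protease, read 1270, 1286 and 1162 normalized counts in control libraries 1, 2 and 3 and 480, 515 and 537 with Tc (DESeq2 on libraries 1 and 2, adjusted p = 2.18e-08). Its libraries were close within the control and Tc groups, yet it missed the limma threshold with all 9 libraries (adjusted p = 0.247). The Dox libraries 1, 2 and 3, which enter that fit, read 680, 2286 and 1197, and their part in the miss was not tested. The chaperones Hspd1 and Hspa9 read 2712 and 2681 against 3526 and 3004 and 4119 and 4285 against 5754 and 4745, neither of which was called.

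The ATF4 list holds genes that rise under amino acid and mitochondrial stress. It had 0 of 23 tested members called higher and 1 lower, against 0.603% and 0.794% of all genes. The groups did not overlap for 0 members in the higher and 7 in the lower direction (30.4%), against 23.6% and 22.0% of all genes. The largest fall in the list, -2.21 on the log2 scale, was in a member that was not called. The member called was Trib3, a pseudokinase that is induced in that response. Trib3 fell from 201.1 and 141.6 normalized counts to 60.5 and 66.5 (DESeq2 on libraries 1 and 2, adjusted p = 0.00902). Atf4 itself overlapped, at 548 and 487 against 626 and 517, and Atf5 read 4251 and 4661 against 1563 and 2887 (adjusted p = 0.0909). Among 20 endoplasmic reticulum stress genes none was called, and the groups did not overlap for 7 in the higher and 0 in the lower direction, against 23.6% and 22.0% of all genes. Hsp90b1, a chaperone of that compartment, read 5675 and 6514 against 5965 and 15232.

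**Figure D4:**
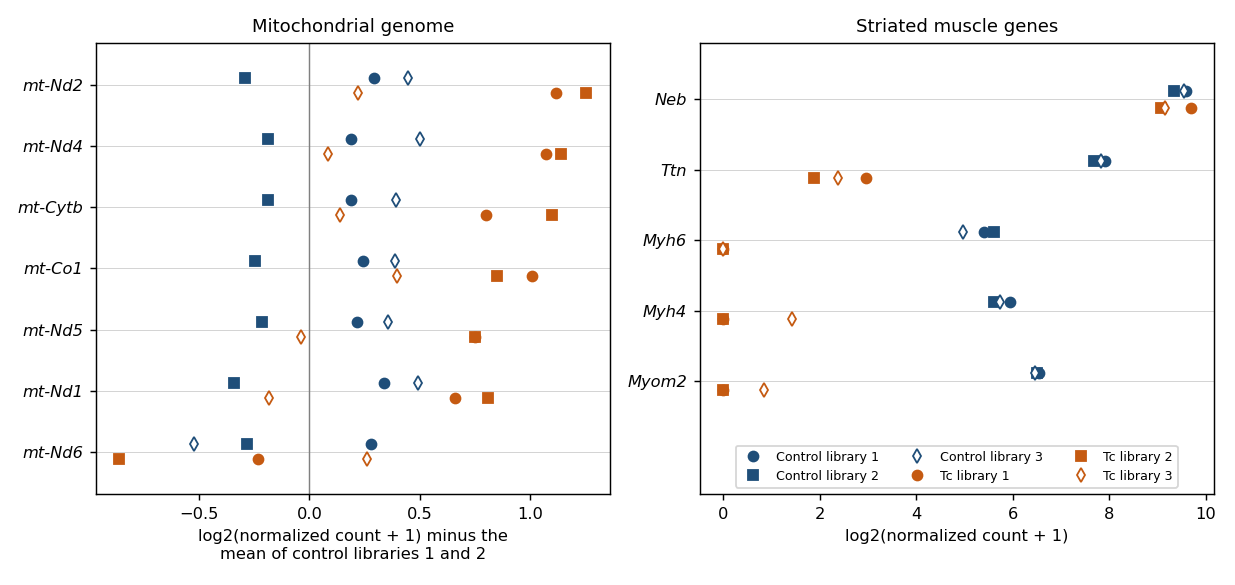
Left, the 7 tested genes of the mitochondrial genome as log2(normalized count + 1) minus the mean of control libraries 1 and 2. Right, log2(normalized count + 1) of the striated muscle genes described by name, for control (blue) and Tc (orange) libraries 1 (circles), 2 (squares) and 3 (open diamonds). On the left, Tc libraries 1 and 2 lie right of the controls for all genes but mt-Nd6, while Tc library 3 lies within the range of the control libraries or close to it, and on the right the Tc libraries lie near 0 for Myom2, Myh4 and Myh6 and far above 0 for Neb.

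Choline and methyl-group metabolism held changes in both directions, with 1 of 25 genes called higher, Pemt, and 1 lower in DESeq2 on libraries 1 and 2. Over all genes, 0.603% were called higher and 0.794% lower. Bhmt, which uses betaine to remake methionine, fell from 15352 and 17503 normalized counts to 6270 and 8072 (adjusted p = 5.96e-05). Cbs, which draws homocysteine away from the cycle and was named after its values were seen, read 10416 and 6595 against 4836 and 3959 (adjusted p = 0.0534). The most abundant members, Mat1a and Gnmt, overlapped between groups.

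In gluconeogenesis and glycogen metabolism, 1 of 27 genes was called in each direction, against 0.603% higher and 0.794% lower of all genes. Both called genes encode regulatory subunits that bring protein phosphatase 1 to glycogen. Ppp1r3c fell from 826 and 954 normalized counts to 205 and 156 (DESeq2 on libraries 1 and 2, adjusted p = 4.07e-15), while Ppp1r3g rose as given above. Pck1, the entry enzyme of gluconeogenesis, read 64454 and 63625 against 34903 and 51624 and was not called (adjusted p = 0.427). Of 46 genes of amino acid breakdown and the urea cycle, 1 was called lower and 0 higher, against 0.794% and 0.603% of all genes. The gene called was Asl, the argininosuccinate lyase, at 11558 and 7462 against 4805 and 4517 (adjusted p = 0.0139).

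Of 44 genes of the Cyp drug metabolism list tested, 3 were called higher and 1 lower in DESeq2 on libraries 1 and 2. The shares called over all genes were 0.603% and 0.794%. The groups did not overlap for 13 higher (29.5%, against 23.6% of all genes) and 3 lower (6.82%, against 22.0%). Cyp1a2, which oxidizes caffeine, rose from 1498 and 1220 normalized counts to 8256 and 3174, and Cyp2u1 from 294 and 396 to 1933 and 583, next to Cyp2c55 above. Cyp2b10, the usual marker of the receptor CAR, fell from 149 and 220 to 27.3 and 70.1 (adjusted p = 0.0136). Cyp3a11, the usual target of the pregnane X receptor, overlapped at 30602 and 22381 against 37030 and 19226.

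Of 43 conjugating enzymes, 3 were called higher and 0 lower, against 0.603% and 0.794% of all genes. The groups did not overlap for 17 higher (39.5%, against 23.6% of all genes) and 3 lower (6.98%, against 22.0%). Sult2a8, a sulfotransferase, rose from 1915 and 1516 normalized counts to 5427 and 3611, and Ugt2b35, a glucuronosyltransferase, from 1024 and 951 to 3163 and 1738. Gstm3 read 58.2 and 62.8 against 483 and 75.5, so that almost all of its difference came from Tc library 1. Among 23 NRF2 targets, 1 was called higher, Ephx1, an epoxide hydrolase, at 501 and 979 against 3357 and 1571. Members of the Cyp2c, Ugt2b, Gstm and Sult2a families are close in sequence, so counts can be split among them.

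Genes that differ between the sexes set the Tc livers apart from each other. Summed over 19 male-biased genes, control libraries 1 and 2 held 11673 and 15844 normalized counts, while Tc library 1 held 67371 and Tc library 2 12350. Summed over 23 female-biased genes they held 26783 and 12479 in controls, 3517 in Tc library 1 and 18771 in Tc library 2. Tc library 1 was thus high in the male-biased and low in the female-biased sum, and Tc library 2 was within the control range in both. Hsd3b5, a steroid dehydrogenase of adult male liver, read 3.2 and 30.1 in controls, 1291 in Tc library 1 and 5.4 in Tc library 2. Mup20, a pheromone carrier, read 128 and 343 against 3835 and 182. Over the 18 male-biased genes tested, the groups did not overlap for 3, all higher (16.7%, against 23.6% of all genes), and 2 were called higher, Nudt7 (1283 and 1323 against 7668 and 3101) and Cyp2u1. Of the 23 female-biased genes, 1 was called, in the lower direction, Cyp17a1, with the values given above. Over all genes, 0.603% were called higher and 0.794% lower. All 6 libraries carry Y-linked reads, as given above, and how far single genes move with this contrast was not tested.

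Acute phase proteins also split the Tc livers. None of 34 tested genes was called, and the median difference was -0.42 on the log2 scale. Chosen after their values were seen, Lcn2, an iron-binding defence protein, read 5136 and 5041 normalized counts in controls, 142 in Tc library 1 and 16169 in Tc library 2, and Saa2, a serum amyloid A, read 14964 and 18592, then 522 and 37158. The controls were alike and the Tc libraries lay on opposite sides of them. Lbp, which carries bacterial lipopolysaccharide, read 4712 and 3809 against 1136 and 3005 (DESeq2 on libraries 1 and 2, adjusted p = 0.311). Alb, the main plasma protein, read 1408836 and 956160 against 576729 and 1093211, and C3 of complement 341125 and 268772 against 132121 and 347759, each with Tc library 1 lowest. Of 43 complement and coagulation genes and 28 interferon response genes, none was called.

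Among other plasma proteins and iron genes, single members stood out. Of 25 iron and heme genes, 1 was called higher in DESeq2 on libraries 1 and 2, Alas1. The share called higher over all genes was 0.603%. Hamp2, a relative of the iron hormone hepcidin, read 125 and 127 against 425 and 180 and was not called. Of 30 plasma carriers and protease inhibitors, 1 was called higher, Serpina6, while Trf, transferrin, read 215358 and 187375 against 252193 and 280754 and was not called.

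Cell cycle genes were mixed, with 1 of 32 called higher and 1 lower, against 0.603% and 0.794% of all genes. Cdkn1a, the inhibitor p21, fell from 74.1 and 300 normalized counts to 14.6 and 21.6 (DESeq2 on libraries 1 and 2, adjusted p = 1.57e-04), and Mcm6, a helicase subunit for DNA replication, rose from 70.9 and 73.4 to 156 and 155. Immediate early genes, which answer signals and handling within minutes, had none called among 24, with 0 higher and 9 lower (37.5%) without overlap, against 23.6% and 22.0% of all genes. Klf10 read 371 and 463 against 260 and 98.9, and Egr1 182 and 152 against 58.6 and 114.

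Summed markers of macrophages and sinusoidal endothelium were lower in each Tc library than in any control library. In these bulk libraries, fewer cells of a type and less RNA per cell cannot be told apart. Over 13 Kupffer cell and macrophage markers the summed level was 11081, 20282 and 15641 normalized counts in control libraries 1, 2 and 3 and 5696, 10707 and 7777 with Tc. Each Tc library was below each control library, the nearest being 10707 against 11081. All 13 had a negative difference (median -0.88, highest -0.47 on the log2 scale), 7 did not overlap (53.8%, against 22.0% of all genes), and none was called. Clec4f, a lectin specific to Kupffer cells, read 2149 and 3405 against 1083 and 1994, and Marco, a scavenger receptor, 238 and 2391 against 131 and 294.

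Sinusoidal endothelial markers had 1 of 13 called, Lyve1, which fell from 236 and 178 normalized counts to 86.9 and 102 (DESeq2 on libraries 1 and 2, adjusted p = 0.0359), and 9 without overlap, all lower (69.2%, against 22.0% of all genes), with a median of -0.29 on the log2 scale. Of all genes, 0.794% were called lower. The sum of these endothelial markers ranged from 9076 to 9723 in controls and from 6619 to 8255 with Tc. Of 8 erythroid markers tested, 5 were lower without overlap (62.5%, against 22.0% of all genes) and 1 higher, and 1 was called, Slc4a1, the anion exchanger of red cells, at 54.0 and 107 against 3.9 and 18.9, and the globin Hbb-bs read 815 and 3277 against 573 and 748. Erythroid sums ranged from 1778 to 6227 in controls and from 1500 to 2268 with Tc over 10 members, so that the groups overlapped. Alas2, an erythroid heme synthesis gene, read 119 and 335 in control libraries 1 and 2 and 1212 and 115 in Tc libraries 1 and 2. Without Alas2, left out after its values were seen, the sums did not overlap. They ranged from 1660 to 5891 in controls and from 1057 to 1385 with Tc. None of the 7 neutrophil markers tested was called. Summed over all 12 neutrophil markers, the 5 below the filter included, levels ranged from 144 to 687 in controls and from 47.8 to 217 with Tc. The neutrophil marker Ly6g read at most 2.1 in any of the 6 libraries, and Elane read 3.2 and 20.3 in control libraries 1 and 2 and 1.0 and 2.7 with Tc. Stellate cell markers overlapped in sum, from 5513 to 5759 and from 5475 to 6111. The part of these cell markers in the changes of other genes was not tested.

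Most tested striated muscle genes read in control livers were at or near 0 with Tc. This list of 25 genes was added after values of Ttn, Myom2 and others had been seen, so it is given with no test as a list. Its 11 tested members include 10 that did not overlap in libraries 1 and 2, all lower, and 9 that DESeq2 called on those libraries. Of all genes, 22.0% did not overlap in the lower direction and 0.794% were called lower. Ttn, the giant spring of the sarcomere, read 240, 206 and 225 normalized counts in control libraries 1, 2 and 3 and 6.8, 2.7 and 4.2 with Tc. Myom2 read 92.1, 89.4 and 87.7 against 0, 0 and 0.8. Skeletal Myh4 (60.3 and 47.8 against 0 and 0) and cardiac Myh6 (41.3 and 47.8 against 0 and 0) moved alike. Neb, which was abundant in all 6 libraries, overlapped at 764 and 643 against 821 and 540. These transcripts define muscle, not hepatocytes, and whether muscle tissue was taken along with the control livers was not tested.

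**Figure D5:**
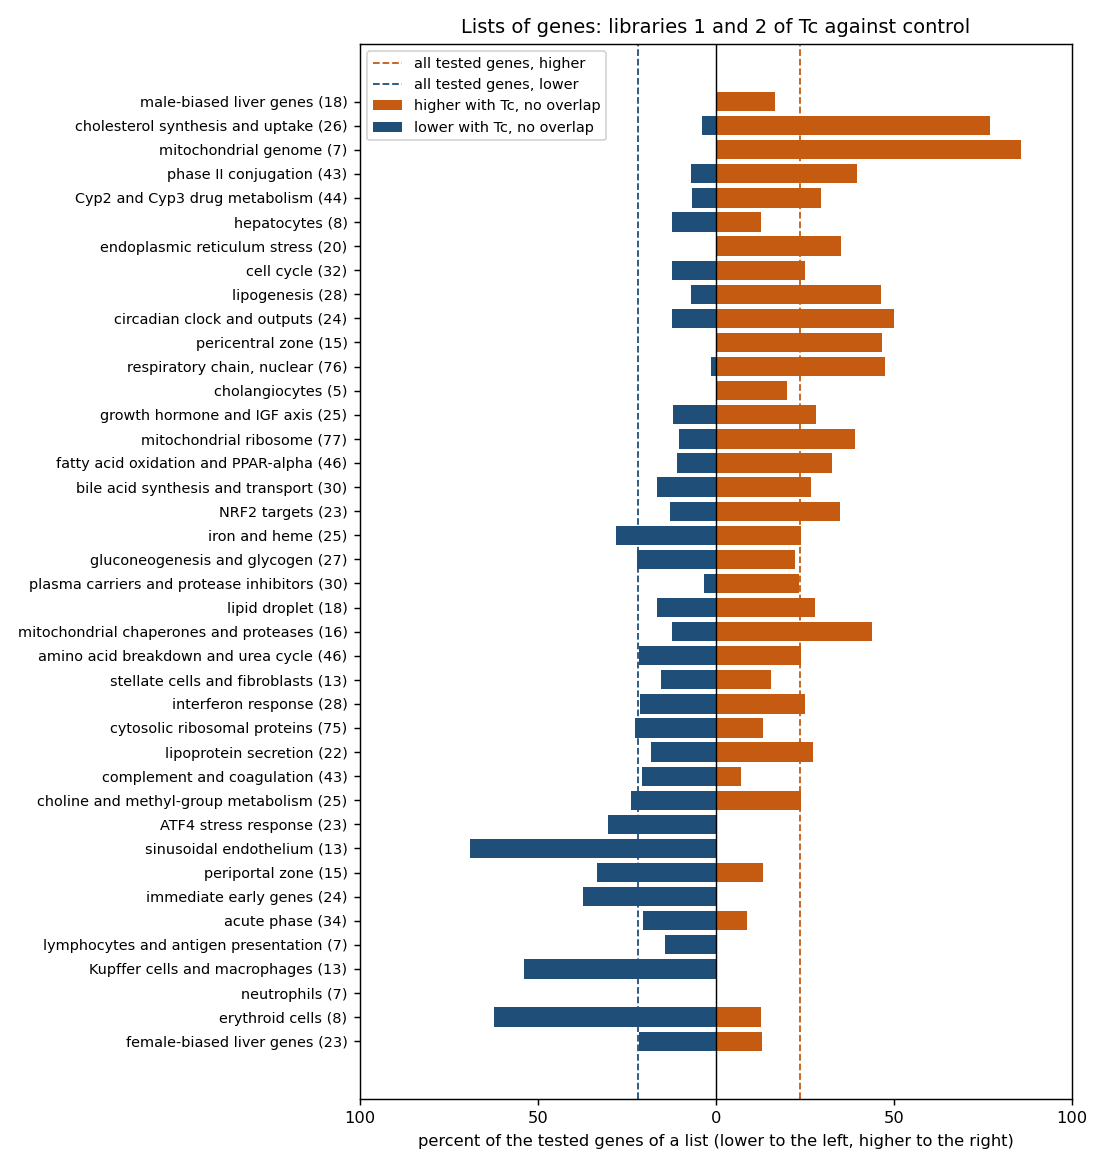
Lists with at least 5 tested genes are ordered by median difference, without the sex-linked and striated muscle lists. Bars give the percent of tested members (number in brackets) whose libraries 1 and 2 did not overlap between groups. Members higher with Tc are drawn to the right and members lower with Tc to the left. Dashed lines give the same for all tested genes, 23.6% higher and 22.0% lower. Cholesterol and mitochondrial genome genes reach farthest right, and sinusoidal endothelial, erythroid and Kupffer cell markers farthest left.

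The remaining lists held few calls. Cytosolic ribosomal proteins, 75 tested, did not overlap for 10 higher and 17 lower (22.7%, near the 22.0% of all genes), with a median of -0.02 on the log2 scale and none called. Pericentral genes of the liver lobule, 15 tested, did not overlap for 7 higher and 0 lower, and periportal genes, also 15, for 2 higher and 5 lower, against 23.6% and 22.0% of all genes. Glul, the glutamine synthetase of the innermost pericentral cells, overlapped at 7868 and 9383 normalized counts against 11430 and 7445, while Lgr5, a Wnt target there, read 31.8 and 22.1 against 82.0 and 54.0 without being called. Growth hormone and IGF axis genes had none called among 25, nor did 8 hepatocyte, 7 lymphocyte and 5 cholangiocyte markers.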

How the data were processed

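Liver RNA was sequenced from 3 control, 3 Tc and 3 Dox samples. Per the labels, RNA was extracted with an RNeasy Fibrous Tissue kit (the study's methods name a NucleoSpin RNA Plus kit), and strand-specific single-end libraries were read on a NextSeq500. The submitters' processing notes name cutadapt, STAR 2.7.11ac, mm10, HTSeq 2.0.5 and DESeq2 1.42.0. The deposited signal values are read counts per gene that the authors divided by a size factor per library. Each column's values were whole multiples of 1 step within a tolerance of 0.05, so whole reads were recovered and used for count tests.

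Symbols and GRCm38 coordinates came from GENCODE for 32158 of 32285 gene IDs. Genes with a mean of at least 10 over the 9 libraries were tested with limma 3.58.1 (trend) on log2(normalized count + 1) in R 4.3.3, over all 9 libraries. Fold changes on that scale understate low genes. A gene was called where it differed by more than 2-fold and its p, adjusted by Benjamini-Hochberg, was under 0.05. DESeq2 1.42.0 and edgeR 4.0.16 were run on the recovered reads, and DESeq2 on libraries 1 and 2 of control and Tc stands beside limma because libraries 3 resemble blends. Limma, DESeq2 and edgeR fits with 3 libraries a group were tested on simulated independent libraries, with no blends. The DESeq2 test on libraries 1 and 2 was not simulated. Normalization, pseudocount, filter, the samples fitted, weights, a replicate block and each library in turn were varied. Nothing says which samples share an animal, so p-values measure the spread between these samples, which may be technical.

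Genes were named by rule. These were all limma calls, the 10 most separated per direction with mean 50 or more, and, per list, members set apart or called plus the 2 most abundant. Acat2, Alas2, Atf4, Cbs, Clock, Cry1, Cry2, Cyp51, Eno1, Fasn, Fdft1, Insig1, Lcn2, Myh4, Myh6, Neb, Nr1d1, Per1, Rgs16, Saa2, Srebf2 and the mitochondrial genes fall outside it and were chosen after their values were seen. The genes, lists and rules were chosen with earlier results of these data known. Some genes that the rule names are not reported here. Transgene transcripts were not analysed here.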

Additional observations from a re-analysis of the deposited data

How the results depend on the processing

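No named gene reversed direction. Of 4584 values over 177 named genes and the alternatives, 3889 kept direction and side of the threshold, 205 lost the call, 485 gained it and 5 moved. Counts of called genes depended strongly on the spread, and the cause was not tested. Against 20 genes (5 higher, 15 lower), limma called 10 (5 lower) at a pseudocount of 0.1, 32 (26 lower) without a filter and 9 (4 lower) at a mean of at least 50. Fitting control and Tc alone gave 276 (108 higher, 168 lower), and array weights 737 (262 higher, 475 lower). DESeq2 gave 191 (67 higher, 124 lower) with all 9 libraries and 449 (189 higher, 260 lower) with control and Tc alone, and edgeR 311 (132 higher, 179 lower) with the latter. Without libraries 3, limma gave 0 (0 higher, 0 lower) over 3 groups and, in a fit added after seeing the data, 2 (0 higher, 2 lower) over control and Tc alone, while DESeq2 gave 169 (73 higher, 96 lower). Leaving out 1 library at a time gave from 1 to 221 calls, 0 to 102 higher and 1 to 119 lower. With an unadjusted p and the fold limit, 389 genes passed. All 20 were called again with TMM, with control and Tc alone and by DESeq2 with 9 libraries, and 18 by edgeR with 9. The 156 genes set apart by libraries 1 and 2 became 512 at 1.5-fold, 5516 without a fold limit and 73 at a mean of at least 50. The median over all genes lay between -0.004 and 0.004 under the scalings tried.

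Replicate numbers did not pair the samples. Deviations of same-numbered control and Tc libraries correlated at 0.01, -0.046 and -0.081. With the number as a replicate block limma called 2 genes (0 higher, 2 lower) over 9 libraries and 333 (122 higher, 211 lower) over control and Tc alone. With 2 libraries a group once libraries 3 are left out, differences in genes that vary between livers, such as acute phase and sex-biased genes, could not be resolved, and levels under 3 reads could not be told from 0.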
